A study of Mus musculus with 12 samples.

Results

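Abca1, Abcg1, Abca7, Abcg4, Apoe, Apoc1, Pltp, Mylip, Smpdl3a and Arl4c are genes linked to the liver X receptors (LXRs). Most of them are known for parts in the export, transport or receptor-mediated uptake of lipids, sterols among them. These genes were given by name and not by a threshold on their values, and are 10 of the 31332 genes in the deposited count table. They and the lists below were chosen with earlier results of these data known. Shares of all genes set beside their counts are thus a description. All 10 passed the filter on low counts and stand among the 17268 genes tested. RNA was counted in 12 libraries of thymic epithelium from C57BL6/J mice at 2 months, sorted into cortical (cTEC) and medullary (mTEC) cells. Every library carried floxed alleles of both receptor genes, LXRalpha (Nr1h3) and LXRbeta (Nr1h2). Libraries 1 to 3 were control mTEC and libraries 7 to 9 control cTEC, without Cre. Libraries 4 to 6 were Cre mTEC and libraries 10 to 12 Cre cTEC, whose FoxN1-Cre transgene is driven from the gene of a thymic epithelial transcription factor. Whether the libraries of 1 group derive from separate or pooled animals is not in the labels, so p-values measure the spread between these libraries. Nor do the labels say whether a cTEC and an mTEC library share an animal, and the tests between cell types, those of the difference of effects included, treat libraries as independent.

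LXRs are nuclear receptors that bind oxysterols and, as dimers with retinoid X receptors, raise the transcription of genes that lower the sterol load of a cell. In many tissues the transporters Abca1 and Abcg1 carry cholesterol and phospholipid out of the cell, apolipoproteins such as Apoe accept these lipids, and Pltp moves phospholipid between lipoprotein particles. Mylip limits uptake by marking lipoprotein receptors for degradation.

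Total counts were 4804697 to 11159013 per library. The label of each sort was checked against marker genes: the summed level of 12 cTEC markers was 11090 to 25811 counts per 1000000 counted reads (CPM) in cTEC libraries and 3642 to 4852 CPM in mTEC libraries, and that of 14 mTEC markers 1906 to 3148 against 6985 to 8465 CPM. By genotype, the cTEC markers ran from 11090 to 13776 CPM in control and 12344 to 25811 CPM in Cre cTEC, which overlapped through library 11 alone. The mTEC markers ran from 2980 to 3148 CPM in control and 1906 to 2157 CPM in Cre cTEC, which did not overlap. Library 11 also had the lowest total count, and its Pearson's r of log2 CPM with library 10, 0.966, was the lowest within a group. In cTEC, 6 of the 12 cTEC markers rose (Tbata, Ly75, Dll4, Prss16, Psmb11 and Ccl25) and Foxn1 fell, while of 13 tested mTEC markers Krt5 and Krt14 fell and Tnfrsf11a, Cd40 and Fezf2 rose. In mTEC, Ccl25 and Foxn1 fell and no mTEC marker was called. The part of these shifts in the results below was not tested. The mTEC marker Ccl21a was at 0 in 10 libraries and at 0.151 and 0.300 CPM in Cre mTEC libraries 4 and 5. In cTEC, Nr1h2 held 168, 157 and 191 CPM in control and 119, 102 and 123 CPM in Cre libraries (log2 fold change -0.58, SE 0.13, adjusted p = 0.00566), and in mTEC 109, 125 and 131 against 95.7, 70.8 and 70.2 CPM (-0.63, SE 0.13, adjusted p = 0.0158). The latter call did not hold when library 2, 3 or 5 was left out, with a highest adjusted p of 0.131. Transcripts of the floxed gene were thus still counted in every Cre library, and which exons are floxed is not in the labels. Nr1h3 lay between 5.82 and 10.7 CPM in all libraries and passed in neither cell type. Foxn1 itself, whose gene drives the Cre, was lower in Cre libraries, at 73.1 to 164 against 270 to 353 CPM in cTEC and 33.9 to 155 against 231 to 291 CPM in mTEC, calls that were lost in 1 and 5 of 20 alternatives. Whether that difference takes part in the results below was not tested.

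The genotype comparison asks what the FoxN1-Cre changed in each cell type. In cTEC, 5 of the 10 genes fell, 1 rose and 4 did not pass: Abcg1, Abca1, Mylip, Apoe and Apoc1 fell, and Abca7 rose. Of all genes tested, 9.01% were called in cTEC, 3.38% as lower and 5.62% as higher (edgeR's quasi-likelihood test, Benjamini-Hochberg adjusted p under 0.05). In mTEC, Abcg1, Abca1 and Mylip fell, none of the 10 rose and 7 did not pass, beside 2.07% of all genes called (1.49% lower, 0.585% higher). The median log2 fold change of the 10 genes was -0.76 in cTEC and -0.34 in mTEC, beside -0.02 and 0.01 over all genes tested. The Cre and control values did not overlap for 8 of 10 genes in cTEC, beside 20.2% of all genes, and for 5 of 10 in mTEC, beside 24.4%. In bulk samples, fewer cells of a type and less RNA per cell cannot be told apart.

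**Figure D1:**
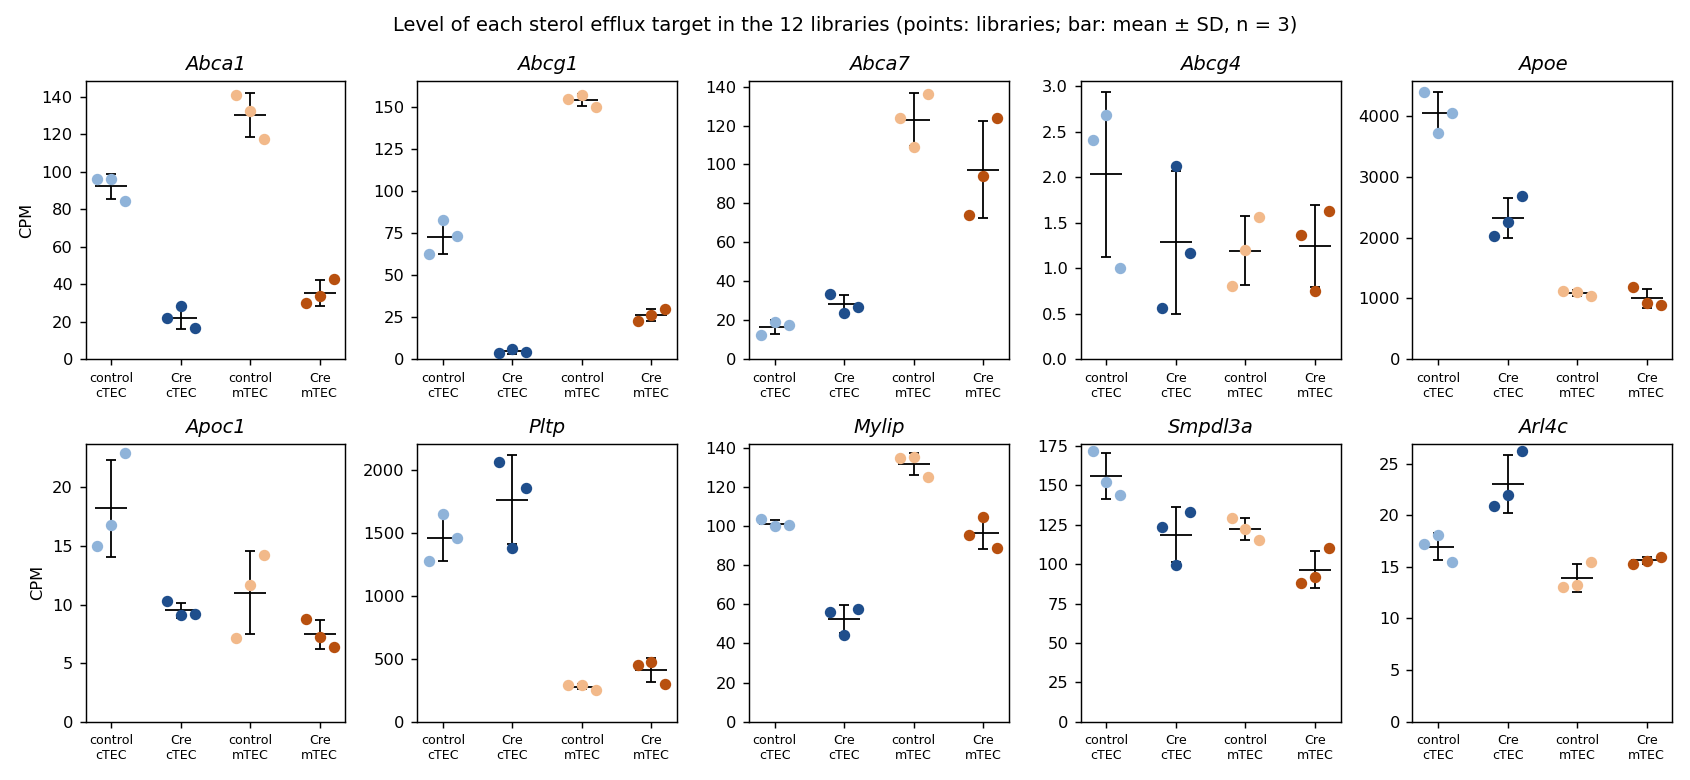
Level of each of the 10 genes in CPM (y axis, from 0, scaled per panel) in the 12 libraries, grouped as control or Cre cTEC and control or Cre mTEC; points are libraries, and the bar with whiskers is the mean ± SD of 3. Abca1 and Abcg1 are low in every Cre library of both cell types, Mylip follows with smaller steps, and Apoe separates by genotype in cTEC but not in mTEC.

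Abca1 exports cholesterol and phospholipid to lipid-poor apolipoproteins. Control mTEC libraries 1 to 3 held 141, 132 and 118 CPM, and Cre mTEC libraries 4 to 6 held 29.7, 33.4 and 43.0 CPM. Control cTEC libraries 7 to 9 held 96.2, 96.0 and 84.6 CPM, and Cre cTEC libraries 10 to 12 held 21.8, 28.2 and 16.5 CPM. The 4 groups ran in the order control mTEC, control cTEC, Cre mTEC and Cre cTEC, with no overlap between neighbours. Cre cTEC held 23.8% of the control level (log2 fold change -2.07, SE 0.16, 95% interval -2.41 to -1.73, adjusted p = 2.73e-07) and Cre mTEC 27.2% (-1.88, SE 0.15, adjusted p = 1.24e-06). The difference between the effects, cTEC minus mTEC, was -0.20 on the log2 scale, with an interval from -0.66 to 0.27, and did not pass (adjusted p = 0.746).

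Abcg1 exports sterols to lipoprotein particles that already carry lipid. Control mTEC libraries held 155, 157 and 150 CPM and Cre mTEC libraries 22.4, 26.1 and 29.8 CPM. Control cTEC libraries held 62.5, 82.6 and 72.9 CPM and Cre cTEC libraries 3.57, 5.98 and 4.08 CPM, which are 28 to 32 counts each. All Cre libraries lay below all control libraries, and the 3 Cre cTEC libraries were the lowest of the 12. The log2 fold change was -4.05 in cTEC (SE 0.17, interval -4.41 to -3.68, adjusted p = 2.28e-11), 6.05% of the control level, and -2.55 in mTEC (SE 0.14, adjusted p = 1.12e-09), 17.0% of it. The test of the difference between the cell types gave -1.49 (SE 0.23, interval -1.97 to -1.02, adjusted p = 0.00150), and the call held in all 19 alternatives tried, where the value lay between -1.67 and -1.32. Of all genes tested, 4.01% differed in this way between the cell types, 1.08% with the lower and 2.92% with the higher value in cTEC, and of the 10 genes Abcg1 and Abca7 did.

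The balance between both exporters differed by genotype as well. The ratio of Abca1 to Abcg1 counts within a library was 1.16 to 1.54 in control cTEC and 4.04 to 6.09 in Cre cTEC. In mTEC it was 0.785 to 0.912 in control and 1.28 to 1.44 in Cre libraries. The values overlapped only between control cTEC and Cre mTEC.

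LXRs bind a direct repeat of AGGTCA with 4 bases between the copies, and such an element is known near the start site of the human ABCA1 gene. Promoter windows (250 bases before to 50 after the start site, RefSeq on GRCm38.p6) were at hand for Arl4c, Pltp, Abca1, Apoe, Abca7 and Mylip, 6 of the 10 genes; Abcg1, Abcg4, Apoc1 and Smpdl3a had none. The motif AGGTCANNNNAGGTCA was searched on both strands over its 12 fixed letters. With at most 2 mismatches no window of the 6 genes held it, beside 3.02% of 32851 windows, and with at most 3, a setting chosen after the first search, Abca1 and Arl4c held it, beside 21.9% of windows. The 250 bases upstream of Abca1, which fell in both cell types, and of Abca7, its close relative that did not fall, are shown 5′ to 3′ on the strand of each gene, at chr4:53159896-53160145 on the minus strand and chr10:79996244-79996493 on the plus strand. Capitals mark the match with 3 mismatches, which starts at base -67 and reads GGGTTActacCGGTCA on its own strand, with both copies in capitals.
Abca1: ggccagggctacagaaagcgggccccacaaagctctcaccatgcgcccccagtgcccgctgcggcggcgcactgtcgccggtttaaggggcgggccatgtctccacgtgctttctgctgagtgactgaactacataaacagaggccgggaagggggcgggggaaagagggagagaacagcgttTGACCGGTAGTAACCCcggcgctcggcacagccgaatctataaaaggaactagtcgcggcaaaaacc
Abca7: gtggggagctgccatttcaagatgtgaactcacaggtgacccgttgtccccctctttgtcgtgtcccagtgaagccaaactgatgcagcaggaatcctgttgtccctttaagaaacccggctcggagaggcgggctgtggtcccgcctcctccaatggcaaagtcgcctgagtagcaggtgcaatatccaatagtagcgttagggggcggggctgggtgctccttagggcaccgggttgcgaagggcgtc
The Arl4c window held 2 overlapping matches, each with 3 mismatches. These are matches of letters, and a window without one says nothing of the receptors.

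Abca7, a close relative of Abca1 known for phospholipid transport and phagocytosis, went the other way in cTEC. Control cTEC libraries were at 12.2, 19.1 and 17.6 CPM and Cre cTEC libraries at 33.6, 23.5 and 27.0 CPM, all above the controls. Control mTEC libraries held 124, 109 and 136 CPM and Cre mTEC libraries 74.1, 94.0 and 124 CPM, which overlapped. Abca7 rose in cTEC (log2 fold change 0.79, SE 0.20, adjusted p = 0.0162) and was not called in mTEC (-0.33, SE 0.16, adjusted p = 0.358), and the difference between the effects passed the test (1.12, SE 0.26, adjusted p = 0.0174). The cTEC call was lost without library 7 (0.63, adjusted p = 0.0969), without library 10 (0.63, adjusted p = 0.0999) and with offsets for transcript length and GC content (0.51, adjusted p = 0.141). The difference was lost without library 7 (0.96, adjusted p = 0.0575) and with the offsets (0.84, adjusted p = 0.0876).

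Abcg4, a relative of Abcg1 known from the brain, was close to the limit of detection, at 5 to 16 counts per library. It lay at 2.41, 2.68 and 0.995 CPM in control cTEC, 0.558, 2.12 and 1.17 CPM in Cre cTEC, 0.807, 1.20 and 1.56 CPM in control mTEC and 1.36, 0.750 and 1.63 CPM in Cre mTEC. All 4 groups overlapped. A genotype effect was not detectable at this depth in cTEC (-0.72, interval -1.86 to 0.41) or in mTEC (0.10, interval -1.03 to 1.24).

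Apoe, the main apolipoprotein that cells outside the liver secrete and a ligand of lipoprotein receptors, was the most abundant of the 10 genes. Control cTEC libraries held 4403, 3728 and 4050 CPM and Cre cTEC libraries 2031, 2254 and 2691 CPM. The mTEC levels were 1128, 1098 and 1033 CPM for control and 1182, 917 and 895 CPM for Cre libraries. The cTEC groups were fully separate, whereas the highest and the lowest mTEC values were both Cre. Apoe fell to 57.3% of control in cTEC (log2 fold change -0.80, SE 0.14, adjusted p = 0.00108) and was not called in mTEC (-0.12, interval -0.42 to 0.18, adjusted p = 0.778). The difference between both effects did not pass (-0.68, SE 0.20, adjusted p = 0.0684), although it did with DESeq2 (adjusted p = 0.00706), with limma voom (0.0267), with a filter of 5 CPM (0.0485) and without library 12 (0.0401).

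Apoc1, a small apolipoprotein encoded beside Apoe, stood at 15.0, 16.8 and 22.9 CPM for control cTEC and 10.3, 9.07 and 9.18 CPM for Cre cTEC. Control mTEC libraries held 7.17, 11.7 and 14.2 CPM and Cre mTEC libraries 8.78, 7.20 and 6.37 CPM. The cTEC groups did not overlap and the mTEC groups did. Apoc1 fell in cTEC (log2 fold change -0.94, SE 0.23, adjusted p = 0.0125), a call lost without library 9 (-0.73, adjusted p = 0.104), and was not called in mTEC (-0.55, SE 0.24, adjusted p = 0.280). Within libraries, the ratio of Apoe to Apoc1 counts was 231 ± 59.0 in control and 247 ± 47.7 in Cre cTEC, and 108 ± 44.0 in control and 134 ± 6.61 in Cre mTEC (SD, n = 3).

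Other genes around Apoe on chromosome 7 were set beside it, in the order Relb, Clptm1, Apoc2, Apoc4, Apoc1, Apoe, Tomm40 and Nectin2 (counted as Pvrl2). Of 8 tested neighbours other than Apoc1, Apoc2 and Bcam fell and Relb rose in cTEC, beside 9.01% of all genes called there, and none was called in mTEC. The Bcam call was lost in 5 of 20 alternatives and the Relb call, at an adjusted p of 0.0457, in 12. Apoc2, the activator of lipoprotein lipase, averaged 1.07 CPM in control and 0.327 CPM in Cre cTEC (-1.82, SE 0.56, adjusted p = 0.0459), a call lost in 13 of 19 alternatives. Tomm40, Clptm1 and Pvrl2 had log2 fold changes of 0.06, -0.18 and 0.14 in cTEC and were not called.

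Apoe and apolipoproteins are also made by macrophages and mesenchymal cells, so the markers of both were read in the same libraries. The summed level of 21 macrophage and dendritic cell markers was 80.7 to 105 CPM in control and 76.1 to 103 CPM in Cre cTEC, and 512 to 646 against 392 to 594 CPM in mTEC. In cTEC, 1 of the 20 tested markers was called, Zbtb46 as higher, and none of the 21 was at 0 in all libraries of a group, with Fcgr1, Marco and Timd4 averaging under 1 CPM in both cTEC groups and Itgax in Cre cTEC. In mTEC Mrc1 was called, as lower (-0.94, SE 0.17, adjusted p = 0.00730). Between cell types, Apoe and the summed mesenchymal markers were lower in mTEC libraries, and the summed macrophage and dendritic cell markers were higher. These contrasts do not address the fall of Apoe with Cre in cTEC. The summed level of 10 mesenchymal markers was 2586 to 2971 CPM in control and 1262 to 1754 CPM in Cre cTEC, most of it Dcn, which fell with Lum while Fbn1 and Col3a1 rose. In mTEC that sum was 440 to 531 CPM in control and 409 to 456 CPM in Cre libraries. The part of these transcripts in the Apoe and Apoc1 results was not tested.

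Pltp, the phospholipid transfer protein, did not follow the exporters. Control cTEC libraries held 1279, 1648 and 1459 CPM and Cre cTEC libraries 2060, 1376 and 1851 CPM. Control mTEC libraries were at 290, 288 and 254 CPM and Cre mTEC libraries at 451, 476 and 298 CPM. The cTEC groups overlapped, and all Cre mTEC libraries lay above the controls, library 6 by the least. Neither effect passed, at 0.27 in cTEC (SE 0.17, adjusted p = 0.442) and 0.56 in mTEC (SE 0.17, adjusted p = 0.104). The mTEC value passed with DESeq2 (adjusted p = 0.0373), voom (0.00381), no filter (0.0261), only the 6 libraries compared (0.0310) and without library 6 (0.74, adjusted p = 0.0182) or 11 (0.52, adjusted p = 0.0415).

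Mylip encodes the ubiquitin ligase that sends lipoprotein receptors to degradation. Control cTEC libraries held 103, 99.8 and 100.4 CPM, against 55.9, 44.2 and 57.4 CPM with Cre. In mTEC the values were 135, 135 and 125 CPM in control and 95.6, 105 and 88.9 CPM in Cre libraries. The groups were separate in both cell types, and the control cTEC libraries had a coefficient of variation of 1.94%. Mylip fell to 52.1% of control in cTEC (log2 fold change -0.94, SE 0.11, adjusted p = 2.62e-05) and to 73.2% in mTEC (-0.45, SE 0.11, adjusted p = 0.0313). The mTEC call was lost in each fit without 1 of libraries 1 to 6, and the difference between the cell types did not pass (-0.49, SE 0.15, adjusted p = 0.0836) except with DESeq2 (0.0442), voom (0.0347) and the filter of 5 CPM (0.0232).

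Receptors that Mylip acts on were read beside it. Vldlr, the very low density lipoprotein receptor, was at 160, 152 and 140 CPM in control and 104, 107 and 126 CPM in Cre cTEC, but at 21.2, 18.5 and 19.1 CPM in control and 29.4, 29.8 and 25.8 CPM in Cre mTEC. It fell in cTEC (-0.43, SE 0.10, adjusted p = 0.0129) and rose in mTEC (0.52, SE 0.12, adjusted p = 0.0294), calls lost in 3 and 7 of 20 alternatives, and the difference held in all 19 (-0.95, SE 0.16, adjusted p = 0.00263). Lrp8, another receptor of this kind, passed in neither (-0.18 and -0.17). These are transcript levels, while Mylip acts on receptor protein.

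Smpdl3a encodes a secreted phosphodiesterase and Arl4c an Arf-like small GTPase. Smpdl3a held 172, 152 and 144 CPM in control cTEC against 123, 99.4 and 133 CPM in Cre cTEC, and 129, 122 and 115 against 88.0, 91.8 and 110 CPM in mTEC. All Cre libraries lay below the controls of their cell type, and neither effect passed (-0.39, SE 0.12, adjusted p = 0.0508, and -0.34, SE 0.12, adjusted p = 0.167). In cTEC it passed with DESeq2 (adjusted p = 0.0215), its size factors (0.0488), the robust fit (0.0456), the filter of 5 CPM (0.0200) and without library 12 (0.0405), and in mTEC with voom (0.0276) and without library 11 (0.0405). Arl4c held 17.2, 18.1 and 15.5 CPM in control cTEC against 20.9, 22.0 and 26.2 CPM in Cre cTEC, all higher than the controls, and 13.1, 13.2 and 15.5 against 15.3, 15.6 and 16.0 CPM in mTEC, where the groups overlapped. Its effects were 0.44 (SE 0.14, adjusted p = 0.0596) and 0.17 (SE 0.14, adjusted p = 0.656), and the cTEC value passed with DESeq2's size factors (0.0491), voom (0.00553) and the filter of 5 CPM (0.0478).

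**Figure D2:**
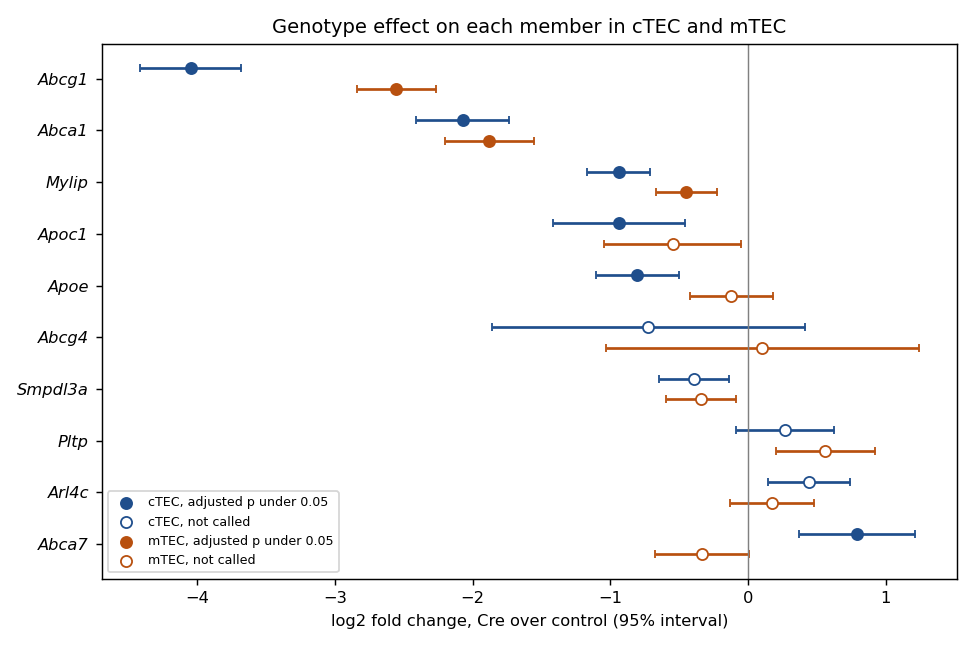
Log2 fold change of Cre over control (x axis) for each of the 10 genes, in cTEC and in mTEC; points are the fitted values, filled where the adjusted p is under 0.05, and lines are 95% intervals. The cTEC and mTEC intervals do not meet for Abcg1, Abca7, Mylip and Apoe, although the tested difference did not pass for Mylip and Apoe. Those of Abca1 meet, and the fitted values of Abca7 in cTEC and mTEC lie on opposite sides of 0.

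A further comparison set mTEC against cTEC within each genotype. In controls 8 of the 10 genes were called, 4 in each direction, beside 59.2% of all genes tested (30.0% lower and 29.3% higher in mTEC), so the share is near a high background. The groups did not overlap for 9 of 10, beside 69.3% of all genes. Abca7, Abcg1, Abca1 and Mylip were higher in mTEC, with log2 differences of 2.91, 1.08, 0.50 and 0.38 (SE 0.19, 0.13, 0.14 and 0.11), and Pltp, Apoe, Apoc1 and Smpdl3a were lower, at -2.40, -1.90, -0.75 and -0.35 (SE 0.18, 0.15, 0.22 and 0.12). The transporters Abca1, Abcg1 and Abca7 were among the higher genes, and the secreted lipid carriers Apoe, Apoc1 and Pltp among the lower. With so high a background this is no result about transporters or carriers as classes. The Apoc1 call was lost without library 1 (adjusted p = 0.0569) or 9 (0.0689), and that of Smpdl3a without library 2, 3, 7 or 8, with no filter and with the offsets (adjusted p from 0.0515 to 0.351).

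In Cre libraries 8 of 10 were called again, 4 in each direction, beside 49.6% of all genes (24.5% lower and 25.1% higher in mTEC), and 8 of 10 did not overlap, beside 53.0%. Abcg1 was 2.57 (SE 0.18) and Mylip 0.87 (SE 0.11) higher in mTEC, the former more than in controls by the difference tested above, and Abca7 and Abca1 were higher by 1.78 and 0.69 (SE 0.18 and 0.17). Pltp, Apoe, Arl4c and Smpdl3a were lower in mTEC, at -2.11, -1.22, -0.56 and -0.30 (SE 0.18, 0.15, 0.14 and 0.12), the last at an adjusted p of 0.0497 that was lost in 14 of 20 alternatives. Apoc1, called in controls, was at -0.36 (SE 0.25, adjusted p = 0.242), and Abcg4 passed in neither genotype.

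To compare levels between genes, CPM were divided by the length of the longest transcript and ranked over 16925 genes with a length. By CPM per kb, Apoe ranked 8 in control cTEC and 11 in Cre cTEC, and 27 in both mTEC groups, at 2884 ± 240 CPM per kb in control cTEC and 772 ± 34.4 in control mTEC. Pltp ranked 30 and 26 in control and Cre cTEC and 328 and 185 in mTEC. The exporters were far lower: Abcg1 held 12.5 ± 1.72 CPM per kb in control cTEC and 26.4 ± 0.624 in control mTEC, and its rank went from 5793 to 13305 in cTEC and from 2823 to 9657 in mTEC. Abca1 held 8.99 ± 0.647 and 12.7 ± 1.15 CPM per kb in the control groups, with ranks from 6938 to 10937 in cTEC and from 5682 to 10520 in mTEC (SD, n = 3). Per kb, Abcg1 stood above Abca1 in both control groups and below it in Cre cTEC (0.779 ± 0.218 against 2.16 ± 0.571 CPM per kb), with no overlap of mean ± SD. In Cre mTEC Abcg1 was at 4.48 ± 0.635 and Abca1 at 3.45 ± 0.667 CPM per kb, where mean ± SD overlapped.

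**Figure D3:**
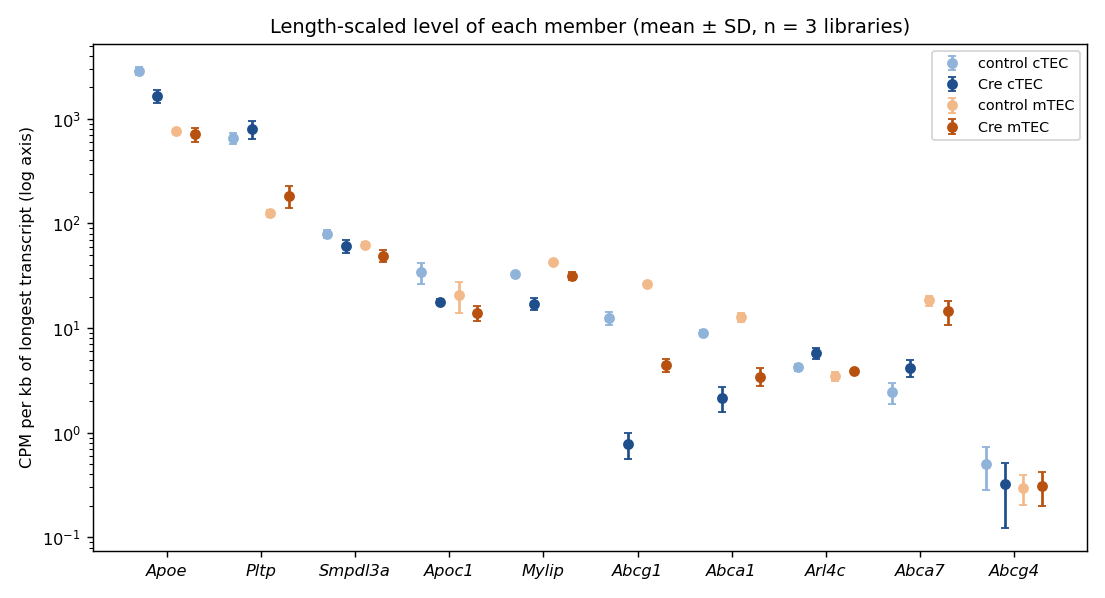
Level of each gene in CPM per kb of its longest transcript (y axis, log scale) in the 4 groups; points are means and whiskers the SD of 3 libraries. Apoe and Pltp stand at the top in every group, Abcg4 is near the bottom, and the steps between control and Cre are largest for Abcg1 and Abca1.

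Lists of related genes were read alongside. Of 17 other LXR targets tested, mostly genes of lipid synthesis, 5 fell in cTEC (Scd2, Mid1ip1, Srebf1, Scd1 and Lpcat3) and 3 in mTEC (Scd2, Scd1 and Mid1ip1), and none rose, beside 3.38% and 1.49% of all genes called as lower. Scd2, a fatty acid desaturase, had a log2 fold change of -4.07 (SE 0.17) in cTEC and -3.05 (SE 0.16) in mTEC, and Mid1ip1, an activator of fatty acid synthesis, -2.40 (SE 0.19) and -1.02 (SE 0.17). Of the 17 genes 3 differed between the cell types, Scd2 (-1.03, adjusted p = 0.00970), Mid1ip1 (-1.38, adjusted p = 0.00555) and Srebf1 (-1.13, adjusted p = 0.0208, lost in 5 of 19 alternatives). Over all genes tested, 4.01% were called for this difference, 1.08% as lower and 2.92% as higher in cTEC. Scd1, another desaturase, was at -1.61 in cTEC and -1.69 in mTEC, and the difference of 0.09 did not pass (interval -0.50 to 0.67, adjusted p = 0.927). Alternatives are not given for the Lpcat3 call. The list medians were -0.26 and -0.46.

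Of 26 tested partners of efflux, among them lipoprotein receptors, lipases, sterol carriers and other apolipoproteins, 6 fell in cTEC and 1 in mTEC, with none higher and medians of -0.18 and -0.25. Over all genes tested 3.38% and 1.49% were called as lower, so the mTEC count is near the background. Cav1, the caveola protein, was at 257, 179 and 116 CPM in control and 49.1, 72.2 and 52.5 CPM in Cre cTEC (-1.67, SE 0.23, adjusted p = 0.000108). Clu, clusterin or apolipoprotein J, was at 601, 563 and 523 against 322, 316 and 341 CPM (-0.78, SE 0.12, adjusted p = 0.000257). Both were separate by genotype in cTEC and passed in cTEC and not in mTEC, and the difference passed for Clu (-0.71, adjusted p = 0.0192), where it was lost in 6 of 19 alternatives, and not for Cav1 (-1.13, adjusted p = 0.0879). Nceh1, a cholesteryl ester hydrolase, and Stard4, a sterol carrier, also fell in cTEC (-0.69, SE 0.11, and -1.58, SE 0.30), as did Lipg and Apoc2. Lipg, endothelial lipase, was the gene called in mTEC (-0.61, SE 0.15, adjusted p = 0.0334). Alternatives are not given for the Lipg calls.

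Of 11 genes of lipoprotein uptake and sterol synthesis control, 6 fell in cTEC, among them Insig1, Srebf2, Vldlr, Sqle and Idi1, beside 3.38% of all genes called as lower there. Sqle overlapped between the groups, at 106 to 207 CPM in control and 67.7 to 121 CPM in Cre cTEC. Idi1 had only 2 to 6 counts in Cre cTEC libraries, and alternatives are not given for either call. In mTEC 1 gene of the list fell and 1, Vldlr, rose, beside 1.49% and 0.585% of all genes. Insig1, which holds back sterol regulatory element binding proteins, was at -1.66 (SE 0.27, adjusted p = 0.000540) and Srebf2, their member for cholesterol synthesis, at -0.61 (SE 0.12, adjusted p = 0.00280) in cTEC. The list medians were -0.43 in cTEC and -0.37 in mTEC.

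Of 18 other ABCA and ABCG transporters, none fell, 2 rose in cTEC and 1 rose in mTEC, with medians of -0.12 and 0.42. Over all genes 5.62% were called as higher in cTEC and 0.585% in mTEC, so these counts of 2 and 1 are no result about the family. Abca2, a lipid transporter of lysosomes known from myelin-forming cells, was at 17.9, 19.3 and 20.2 CPM in control and 54.8, 44.8 and 41.0 CPM in Cre cTEC, and at 48.2, 39.2 and 36.5 against 29.5, 38.4 and 38.8 CPM in mTEC. It separated by genotype in cTEC and overlapped in mTEC. It rose in cTEC (1.29, SE 0.15, adjusted p = 2.53e-05), and the effect differed from that in mTEC (1.51, SE 0.21, adjusted p = 0.000969), both in all alternatives. Abca3, the surfactant lipid transporter, rose in cTEC too (0.58, SE 0.13, adjusted p = 0.00631), a call lost with the offsets (0.38, adjusted p = 0.0896) and without library 10. Abca8b averaged 1.82 CPM in control and 4.67 CPM in Cre mTEC (1.35, SE 0.26, adjusted p = 0.0108), a call lost without library 1, 3, 4 or 5. Among 8 tested genes listed as relatives of Smpdl3a, Arl4c, Pltp and Apoc1, of which Msln is no relative of these, Apoc2 in cTEC was the single call, beside 9.01% of all genes called.

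**Figure D4:**
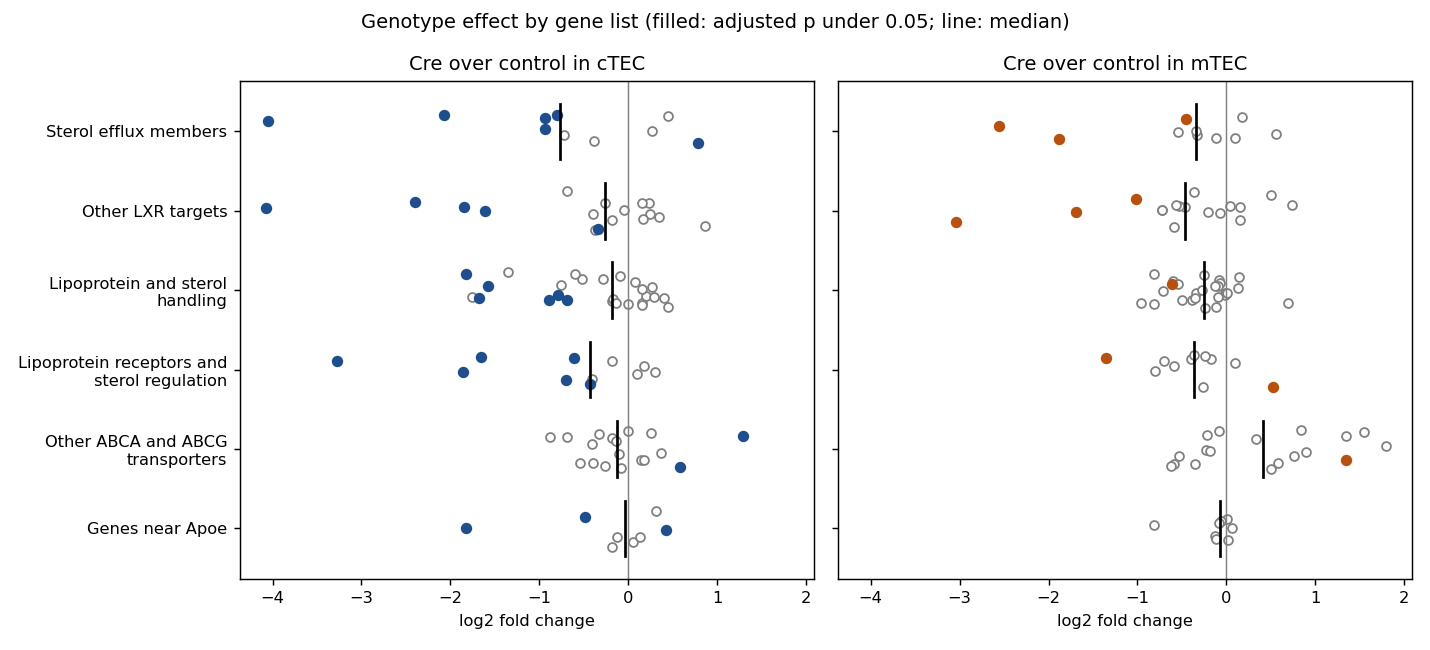
Log2 fold change of Cre over control (x axis) for the tested genes of each list (rows), in cTEC on the left and mTEC on the right; points are genes, filled where the adjusted p is under 0.05, and the vertical bar is the list median. The called genes lie to the left of 0 in the first 4 lists except Abca7 in cTEC and Vldlr in mTEC, and to the right for Abca2 and Abca3 in cTEC and Abca8b in mTEC.

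Of the receptors and their partners, Rxra and Rxrb passed in neither cell type (0.15 and 0.00 in cTEC, -0.07 and 0.16 in mTEC), and Rxrg, at 2.66 CPM in control and 5.84 CPM in Cre cTEC, rose in cTEC (1.15, SE 0.35, adjusted p = 0.0433), a call lost in 10 of 18 alternatives.

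The genes most like Abca1 and Abcg1 across the 12 libraries were named by Pearson's r of log2 CPM over 12342 genes with a mean of at least 5 CPM. For Abca1 they were Scd2 (r = 0.968), Abcg1 (0.958) and Cisd1 (0.923), a mitochondrial outer membrane iron-sulfur protein. Those for Abcg1 included 1190003J15Rik (0.960) and Abca1. The 12 points fall into 4 groups of 3, so these r values describe shared group differences and are given as a description.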

How the data were processed

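Thymic epithelial cells of mice at 2 months were sorted into lysis buffer, RNA was extracted and libraries were made with a SMARTer low-input kit, per the labels' protocols. A single table of raw counts for 12 libraries, by gene symbol, was deposited by the authors, made with STAR, HTSeq, edgeR and build mm9 among the tools, per the submitters' processing notes. Not given in the sources used here were annotation and strand setting, and since the kit does not mark strand, a gene and an antisense partner cannot be told apart.

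Samples were grouped by the labelled cell type and genotype, 3 libraries a group. From the deposited counts, edgeR's quasi-likelihood test (edgeR 4.0.16, R 4.3.3, two-sided) was fitted once to the 4 groups of 12 libraries, leaving 8 residual degrees of freedom, with TMM scaling, filterByExpr and Benjamini-Hochberg adjustment over the 17268 genes tested, at a threshold of 0.05. There were 5 comparisons, and adjusted p-values without a named tool come from it. Log2 fold changes set Cre over control, or mTEC over cTEC where cell types are compared, and the difference of effects is cTEC minus mTEC. The SE is the fold change over the root of its F statistic. CPM are counts per 1000000 of the library total times its TMM factor. Depth was 4804697 to 11159013 counts per library, so 1 count was 0.0896 to 0.193 CPM. No counting intervals are given, since reads lack molecular identifiers and are not independent molecules.

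Transcript lengths and GC content came from GENCODE M21 by symbol (98.01% of genes tested), and promoters from RefSeq on GRCm38.p6. That is another build than the files' mm9, so promoter positions belong to GRCm38.p6 alone. Named were all 10 genes, Nr1h2, Nr1h3 and Foxn1, up to 4 called genes of each list by p, and the 3 genes most like Abca1 and Abcg1, of which some are not reported here; others were named after their values were seen (Lipg, Lpcat3, Sqle, Idi1, Lrp8, Rxra, Rxrb, Tomm40, Clptm1, Pvrl2, Zbtb46, Mrc1, Itgax, Msln, Dcn, Lum, Fbn1, Col3a1 and the called cTEC and mTEC markers). The 10 genes and the lists were chosen with earlier results of these data known. Alternatives were limma 3.58.1 (voom, quality weights), DESeq2 1.42.0, its size factors alone, edgeR's robust fit, no filter, at least 5 CPM in 3 libraries, a fit to only the libraries compared, and fits without each library. Offsets for length and GC content were chosen after seeing the data. The fits were tested on simulated data.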

Additional observations from a re-analysis of the deposited data

Results flagged for a closer look

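The genotype effect on Abcg1 differed between the cell types: it was -4.05 in cTEC and -2.55 in mTEC on the log2 scale, a difference of -1.49 (SE 0.23, adjusted p = 0.00150 by edgeR's quasi-likelihood test), with all 3 Cre libraries below all 3 controls in both cell types. The effect on Abca7 differed as well, at 0.79 in cTEC and -0.33 in mTEC, a difference of 1.12 (SE 0.26, adjusted p = 0.0174), with all 3 Cre cTEC libraries above the controls and overlapping groups in mTEC. The second of these was lost without library 7 and with offsets for transcript length and GC content.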

How the results depend on the processing

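Over the 5 comparisons and 20 alternatives, 909 values of the 10 genes kept their direction and their side of the threshold, 34 lost a call, 25 gained one and 13 changed sign. The sign changes were in values that passed nowhere: Abcg4 in mTEC was -0.11 with voom and -0.15 to 0.35 with 1 library left out, Abcg4 between mTEC and cTEC of the Cre groups was -0.016 with the offsets and -0.35 to 0.61 with 1 library left out, and the Smpdl3a difference of effects was 0.072 with voom, 0.030 without a filter, 0.17 with the offsets and -0.13 to 0.086 with 1 library left out. Of the 10 genes, 4 differed between the cell types with DESeq2, voom and the filter of 5 CPM, 1 with the offsets and 1 to 3 with 1 library left out, against 2. In mTEC 5 were called with voom, 4 with DESeq2, without a filter and with only the libraries compared, and 2 to 5 with 1 library left out, against 3. In cTEC 8 were called with DESeq2's size factors and the filter of 5 CPM, 7 with DESeq2, voom and the robust fit, 5 with the offsets and 5 to 7 with 1 library left out, against 6. Over all genes, the 358 calls in mTEC became 599 with DESeq2, 1672 with voom, 1049 without a filter, 1026 with only the libraries compared and 78 to 984 with 1 library left out. The 692 differences of effects became 1131, 1398 and 1140 with the first 3 and 371 to 1644 with 1 library left out, and the 1555 calls in cTEC became 1018 to 2294. With 1 library left out, the highest count in each of these comparisons came without library 11. The cause was not tested. The filter of 5 CPM removed Abcg4, and the difference of effects has no fit on only the libraries compared. No paired analysis was possible because the libraries run from 1 to 12 and groups have no number in common. Depth limits Abcg4, at 5 to 16 counts, and Abcg1 in Cre cTEC, at 28 to 32 counts.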
